A study of Homo sapiens with 4 samples.

Results

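The genes described here are 10 members of the Notch pathway and of the HES/HEY family, taken by name from a fixed list out of 20025 protein-coding genes. They are the transcriptional repressors HES1, HES4, HES5, HES7, HEY1 and HEY2, the receptor NOTCH1, and the ligands JAG1, DLL1 and DLL3. The list was chosen with earlier results of these data known. A position of GATA3 was assigned to a member when it lay within 100 kb of the 5′ end of the gene in hg38, inside the gene body, or carried the symbol of the gene in the authors' file. The series held 4 samples of H1, an established line of pluripotent human embryonic stem cells, all given BMP4 at 50 ng/ml for 6 h. They were 2 chromatin immunoprecipitations (ChIP) with an antibody to GATA3 and 2 input chromatin samples, and only the 2 ChIP replicates had a peak file analysed here. No GATA3 ChIP of untreated cells was analysed, so the positions describe BMP4-treated cells and no change with BMP4 can be read from them. The study calls the replicates biological, and neither it nor the labels say whether they came from separate cultures. Each list holds 1 position per entry, which can fall between bases, with no height or width.

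In Notch signalling, a ligand on one cell (a Jagged or Delta-like protein) engages a receptor on its neighbour, and the receptor is cut so that its intracellular domain reaches the nucleus. There it joins the DNA-binding protein RBPJ, and the HES and HEY genes are its best known targets. The HES and HEY proteins are basic helix-loop-helix repressors that bind DNA and hold down genes of differentiation, and HES1 also represses its own promoter. GATA3 is a zinc finger transcription factor that recognises the letters WGATAR, where W is A or T and R is A or G.

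HES1 carried by far the most GATA3 positions of the 10 genes, both across its surroundings and close to its start. A replicate 1 and a replicate 2 position that lay no more than 100 bp apart were joined into a shared region. HES1 had 10 positions in replicate 1 and 8 in replicate 2, which gave 6 shared regions, 4 locations found in replicate 1 alone and 2 found in replicate 2 alone. The other 9 genes together had 16 positions in replicate 1, 8 in replicate 2 and 7 shared regions. No shared region lay in the windows of HES4, HES5, HEY1 or HEY2, so among these 6 repressors the shared regions were those of HES1 and 1 of HES7.

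The sequence just before the HES1 start is shown because a shared region sits on it and because it holds a pair of RBPJ core motifs. The letters are the 250 bases upstream of the start in the RefSeq promoter table (GRCh38.p14, chr3:194135898-194136147, plus strand), and capitals mark TGGGAA, the core bound by RBPJ.
HES1 promoter: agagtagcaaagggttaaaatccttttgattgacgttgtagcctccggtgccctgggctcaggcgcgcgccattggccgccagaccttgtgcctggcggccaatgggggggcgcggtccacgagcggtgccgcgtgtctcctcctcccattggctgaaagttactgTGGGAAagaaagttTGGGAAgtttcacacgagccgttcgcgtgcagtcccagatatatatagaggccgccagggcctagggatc

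The shared region on this promoter was centred 0.080 kb upstream of the HES1 5′ end (chromosome 3, 194136079 in replicate 1 and 194136057 in replicate 2, 22 bp apart). Its centre fell in the first motif of the TGGGAA pair (194136064 to 194136069), whose middle was 1.5 bp away. The second (194136078 to 194136083) held the replicate 1 position and had its middle 12.5 bp from the centre. The 200 bp window around the centre held no WGATAR on either strand. The nearest WGATAR in the promoter table lay just beyond the end of that window, 22 bases after the start. The window also held 4 matches to CACNAG, the N-box of the HES repressors, on either strand, where N is any base.

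RBPJ cores stood at a like distance before the starts of HES4 and HES5, which had no shared region. The stretches from base 100 to base 51 before the RefSeq start are set side by side for the 3 genes, each on the strand of its gene, with TGGGAA in capitals. They lie within the upstream windows chr3:194135898-194136147 (plus strand), chr1:1000098-1000347 (minus strand) and chr1:2530264-2530513 (minus strand).
HES1: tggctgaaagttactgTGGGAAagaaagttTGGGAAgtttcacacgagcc
HES4: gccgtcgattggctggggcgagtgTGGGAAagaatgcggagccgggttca
HES5: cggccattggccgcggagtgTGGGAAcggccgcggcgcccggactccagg

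The HES4 motif began 76 bases and the nearer HES5 motif 80 bases before the start, against 84 and 70 bases for the HES1 pair. Of the 10 members, 7 were matched in the promoter table (HES1, HES4, HES5, HES7, HEY2, NOTCH1 and JAG1), which runs from 250 bases before to 50 after the start. TGGGAA was in 24.0% of all 35116 promoters and in those of HES1, HES4, HES5 and HEY2. It was in none of the HES7, NOTCH1 and JAG1 promoters. WGATAR was in 25.0% of all promoters and, of the 7 members, in that of HES1. A match is a string of letters and says nothing of whether a factor sits there.

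**Figure D1:**
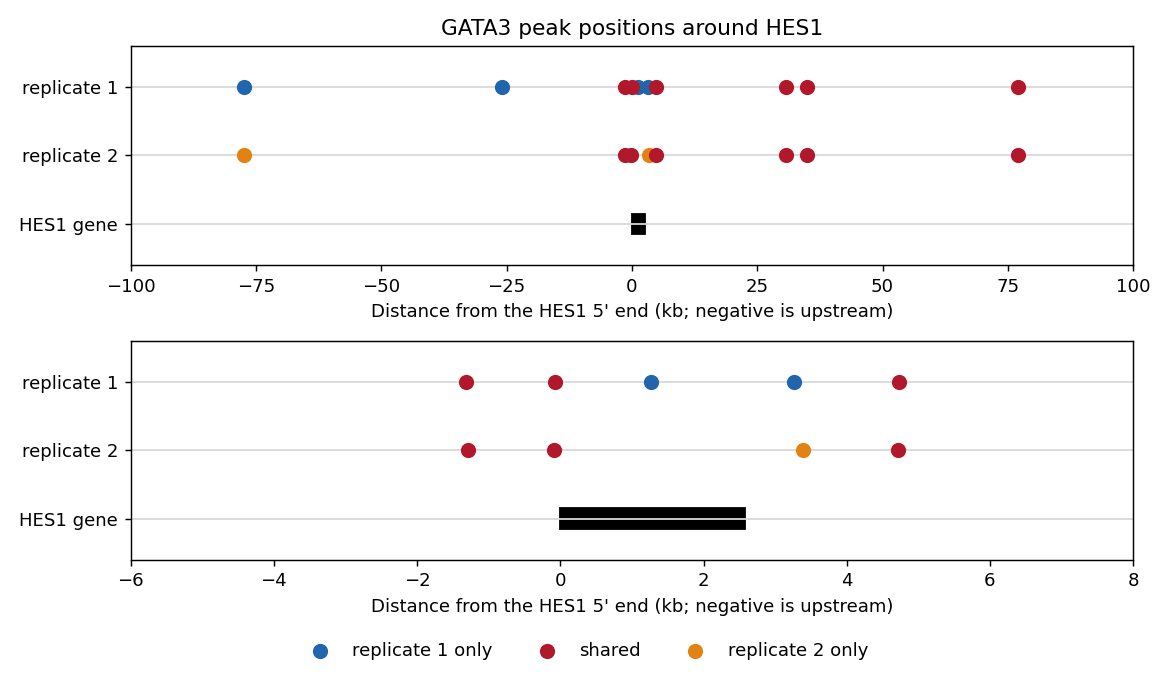
GATA3 positions around HES1 in each replicate, as the distance from the HES1 5′ end in kb over 100 kb on each side (upper panel) and near the gene (lower panel). Red points belong to shared regions, blue and orange points to 1 replicate, and the black bar is the gene. 3 of the 6 shared regions lie within 5 kb of the 5′ end and the other 3 lie downstream.

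Within 5 kb of the HES1 5′ end there were 5 positions in replicate 1 and 4 in replicate 2, at 6 locations that span 6.03 kb. In order along the gene, the first was a shared region 1.30 kb upstream (194134827 and 194134866, 39 bp apart), 0.372 kb from the start of a long non-coding RNA gene (ENSG00000289385). The promoter region followed. A position of replicate 1 alone then lay 1.27 kb inside the gene, in intron 3 (194137413), with 1 WGATAR in its window. Past the gene end, replicate 1 had a position at 3.27 kb (194139413) and replicate 2 had one at 3.40 kb (194139544) downstream of the 5′ end. They were 131 bp apart, beyond the 100 bp that counts as shared. The last was a shared region at 4.72 kb (194140880 and 194140863, 17 bp apart), beyond the gene end.

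Further out in the window, 3 shared regions lay downstream and none upstream. They were centred 30.7 kb (194166808 and 194166843, 35 bp apart), 34.9 kb (194170997 and 194171013, 16 bp apart) and 77.0 kb (194213194 and 194213196, 2 bp apart) from the 5′ end. The first and second were intergenic, and the third lay in intron 1 of the long non-coding RNA LINC02036. Upstream, replicate 1 alone had a position at 25.8 kb (194110314). A pair that was 161.5 bp apart lay in intron 1 of LINC02028, at 77.3 kb in replicate 1 (194058855) and 77.5 kb in replicate 2 (194058693.5).

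The unshared positions of HES1 thus included 2 pairs, 131 bp and 161.5 bp apart, beyond the limit of 100 bp. Of its 4 positions in replicate 1 alone, 2 had a replicate 2 position within 250 bp, against 11.0% of all 9311 unshared positions of replicate 1. Those 2 belong to the pairs just named, so with 4 positions this places the pairs and is not a test. Both pairs count as shared when the distance is 250 bp, which raises HES1 to 8 regions.

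HES1 was the nearest protein-coding gene to all 12 of these locations. The flanking coding genes, OPA1 and CPN2, have their 5′ ends 543 kb and 215 kb away. In the 642 kb between their bodies there were 7 shared regions, 10.9 per Mb against 2.96 per Mb over the chromosomes. All but 1 are the HES1 regions given above, so the density describes this stretch and is not a test. The seventh was 133 kb upstream of HES1 (194003306 and 194003330), in introns of 2 long non-coding RNA genes, with 1 WGATAR. This stretch also held 8 locations of replicate 1 alone and 3 of replicate 2 alone. Only a link by distance ties these positions to HES1.

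Against all 20025 protein-coding genes, a shared region somewhere in the window was common and a set as large as that of HES1 was rare. A shared region was in the window of 6 of the 10 members, and of 47.4% of all genes, so that the count of members stood near the background. The median was 1 region over the members and 0 over all genes, with a mean of 0.74 and an upper quartile of 1. A window with 6 or more shared regions was found for HES1 alone of the members and for 0.39% of genes. Of all genes, 42 had more regions than HES1 and 36, HES1 among them, had the same number. The limit of 6 is the value of HES1 itself, so this places HES1 among the genes and is not a test.

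Near the 5′ end, 3 members had a shared region and HES1 had the most. A shared region within 10 kb of the 5′ end was found for HES1, NOTCH1 and JAG1, 3 of 10 members, against 8.67% of genes. These counts use the gene's GENCODE 5′ end. Measured from its canonical transcript start, DLL1 also had shared regions within 10 kb, 4.98 kb upstream and 4.21 kb downstream. Within 1 kb it was found for HES1 alone, 1 of 10 members, against 2.42% of genes. At least 3 shared regions within 5 kb were found for HES1, 1 of 10 members, against 0.03% of genes, a limit again set from the value of HES1. The 6 such genes were HES1, GATA2, GATA3, PRDM1, TFAP2A and TRIML2, named after their values were seen, and each had 3. Each position also carried a gene name given in the files. The symbol HES1 was on 5 positions of replicate 1 and 4 of replicate 2, and 1.71% and 2.24% of the names had as many or more. JAG1 was the other member whose symbol was in the files, and no position was added to a member by its symbol alone.

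**Figure D2:**
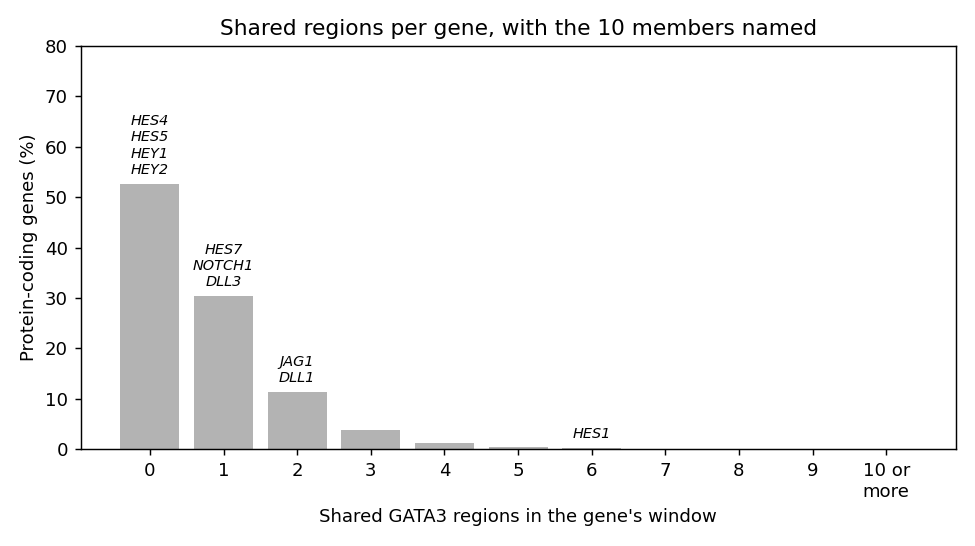
Share of the 20025 protein-coding genes (vertical axis, percent) with each number of shared GATA3 regions in the gene's window (horizontal axis), with the 10 members named above the bar of their own count. HES4, HES5, HEY1 and HEY2 stand at 0 with 52.6% of genes, and HES1 stands at 6.

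The shared regions of HES1 away from its promoter differed in base composition and in GATA motifs. They are shown for that contrast, on the plus strand of hg38, with every WGATAR match on either strand in capitals. The 4.72 kb and 77.0 kb regions held 1 match each, the 34.9 kb region held 5, and the regions at 1.30 kb upstream and 30.7 kb downstream held none. The windows printed are chr3:194134797-194134896, chr3:194140822-194140921, chr3:194166776-194166875, chr3:194170906-194171105 and chr3:194213146-194213245, in the order of the lines.
HES1 1.30 kb upstream: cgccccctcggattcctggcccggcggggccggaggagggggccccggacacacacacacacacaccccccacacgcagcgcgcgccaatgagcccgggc
HES1 4.72 kb downstream: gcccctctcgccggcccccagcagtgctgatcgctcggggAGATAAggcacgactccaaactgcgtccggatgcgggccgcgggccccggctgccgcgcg
HES1 30.7 kb downstream: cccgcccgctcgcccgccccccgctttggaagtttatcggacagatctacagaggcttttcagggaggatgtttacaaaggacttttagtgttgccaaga
HES1 34.9 kb downstream: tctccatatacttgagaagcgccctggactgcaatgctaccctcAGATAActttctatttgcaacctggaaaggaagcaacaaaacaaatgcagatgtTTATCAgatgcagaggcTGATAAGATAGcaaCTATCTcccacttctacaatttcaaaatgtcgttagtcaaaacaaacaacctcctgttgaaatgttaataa
HES1 77.0 kb downstream: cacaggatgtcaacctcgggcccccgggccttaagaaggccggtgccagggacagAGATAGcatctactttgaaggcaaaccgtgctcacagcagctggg

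The region at 34.9 kb had the densest GATA letters of the 13 member regions. The middles of its 5 matches lay 52.5 bp before the centre and 1.5, 18.5, 23.5 and 32.5 bp after it, with 2 of the matches overlapping. Windows with 5 or more WGATAR made up 0.689% (63) of all 9145 shared regions. The limit of 5 is the count of the 34.9 kb region itself, so this places it and is not a test. The single match of the 4.72 kb region was AGATAA at 194140862 to 194140867, which covers the replicate 2 position, in a window with 71.5% GC. The region at 1.30 kb upstream had 75.0% GC and lacked even the 4-base core GATA. The promoter and 30.7 kb windows each held that core once, 48.5 bp and 14.0 bp from the centre, with neighbouring letters that break WGATAR. The RBPJ core TGGGAA was in 4 of the 6 HES1 regions, those at the promoter, 1.30 kb upstream, and 30.7 kb and 77.0 kb downstream.

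Of the other 5 HES and HEY members, HES7 had the one shared region. HES7 is the repressor of the segmentation clock. Its region was 49.3 kb upstream of the gene (chromosome 17, 8173451 and 8173439, 12 bp apart), in exon 5 of TMEM107 and 0.142 kb from the start of the small nucleolar RNA gene SNORD118. Replicate 1 alone had positions 5.66 kb and 36.2 kb downstream of the HES7 5′ end (8118442 and 8087873). These lay within 1 kb of the 5′ ends of the lipoxygenase genes ALOXE3 and ALOX12B. All 3 locations of HES7 were thus nearer to another coding gene.

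For the remaining HES and HEY members, positions were few or absent. HES5, a neural repressor and Notch target, had 1 position, of replicate 1 alone, 85.7 kb downstream of its 5′ end in PLCH2 (chromosome 1, 2444549). HEY2, which acts in heart development, had 1, of replicate 1 alone, 40.1 kb upstream in introns of HEY2-AS1 and LINC02523 (chromosome 6, 125707598). HES4 and HEY1 had none in either replicate. Their nearest shared regions were 154 kb from HES4, 106 kb from HES5, 123 kb from HEY1 and 278 kb from HEY2. A list that holds no position shows only that no peak passed the authors' threshold, since the depth is not known from these files.

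**Figure D3:**
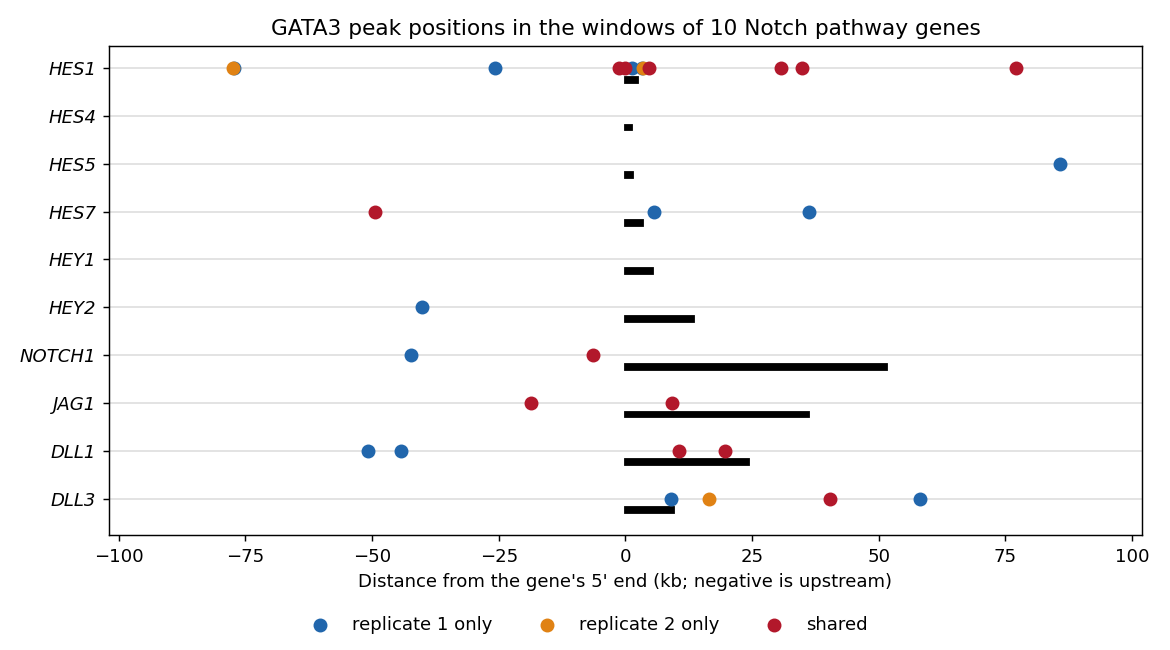
GATA3 positions in the windows of the 10 genes, 1 row a gene, as the distance from the 5′ end of the gene in kb with upstream negative. Red points are shared regions, blue points are positions of replicate 1 alone, orange points are positions of replicate 2 alone, and black bars are gene bodies. HES1 has 6 red points, JAG1 and DLL1 have 2 each, and HES4 and HEY1 have no point.

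The receptor NOTCH1 had 1 shared region, 6.42 kb upstream of its 5′ end (chromosome 9, 136552451 and 136552487, 36 bp apart). It lay outside any gene, 6.21 kb from the start of the microRNA gene MIR4674. Replicate 1 alone had a further position 42.2 kb upstream (136588279). NOTCH1 was the nearest coding gene to both.

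JAG1, the ligand mutated in Alagille syndrome, had 2 positions in each replicate and both were shared. The first was 18.7 kb upstream (chromosome 20, 10692728 and 10692682, 46 bp apart), in an intron of a long non-coding RNA gene (ENSG00000270792). The second was 9.21 kb inside JAG1, in intron 2 (10664761 and 10664827). The replicates were 66 bp apart there, the widest gap of the 13 member regions. At a limit of 50 bp JAG1 kept 1 of the 2.

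The regions of NOTCH1 and JAG1 are shown because JAG1 was the other gene with a shared region that held several GATA motifs, and because its regions split the GATA and RBPJ letters between them. Capitals mark WGATAR on either strand in the plus strand of hg38, at chr9:136552420-136552519, chr20:10664695-10664894 and chr20:10692606-10692805.
NOTCH1 6.42 kb upstream: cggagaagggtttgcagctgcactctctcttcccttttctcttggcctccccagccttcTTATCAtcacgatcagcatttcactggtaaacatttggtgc
JAG1 9.21 kb inside: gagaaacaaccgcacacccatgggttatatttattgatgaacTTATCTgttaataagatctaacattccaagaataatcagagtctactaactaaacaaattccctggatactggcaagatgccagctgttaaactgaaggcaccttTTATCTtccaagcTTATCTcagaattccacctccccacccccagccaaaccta
JAG1 18.7 kb upstream: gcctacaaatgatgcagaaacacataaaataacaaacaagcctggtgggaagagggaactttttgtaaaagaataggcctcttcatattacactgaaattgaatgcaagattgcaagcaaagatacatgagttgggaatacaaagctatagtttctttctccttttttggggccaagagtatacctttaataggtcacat

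The intron 2 region of JAG1 held 3 AGATAA, all on the minus strand, 54.5 bp, 50.5 bp and 63.5 bp from the centre. The upstream region held no WGATAR and 2 TGGGAA, at 10692651 to 10692656 and 10692738 to 10692743. At least 2 TGGGAA were in 2.11% (193) of all shared regions. Of the 13 member regions, 2 held as many, this one and the HES1 promoter. The limit of 2 is their own count, so this places them and is not a test. The NOTCH1 region held 1 WGATAR, 12.5 bp from the centre.

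DLL1, a ligand of Notch in somites and neural progenitors, had 4 positions in replicate 1 and 2 in replicate 2, with 2 shared regions. In GENCODE the 5′ end of the gene (170306565) lies upstream of the start of the canonical transcript (170291078), so distances depend on which is used. One region (chromosome 6, 170296066 and 170296059, 7 bp apart) was 10.5 kb inside from the gene's 5′ end and 4.98 kb upstream of the canonical start. The other (170286875 and 170286852, 23 bp apart) was 19.7 kb inside from the 5′ end and 4.21 kb past the canonical start, in intron 4. By gene 5′ ends, the nearest protein-coding gene to both was the neighbouring FAM120B, 5.36 kb and 3.84 kb away. The start of a long non-coding RNA gene (ENSG00000271234) was closer to the first, at 2.31 kb. Neither held WGATAR, at 73.0% and 61.0% GC. Replicate 1 alone had positions 44.2 kb and 50.9 kb upstream (170350810 and 170357440), both in intron 5 of FAM120B.

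DLL3, a divergent Delta-like protein that acts in somite segmentation, had 3 positions in replicate 1 and 2 in replicate 2, and 1 shared region. That region (chromosome 19, 39539288 and 39539280, 8 bp apart) was 40.4 kb downstream of the 5′ end and 0.877 kb from the 5′ end of EID2, in its exon 1. Replicate 1 alone had a position in exon 8 of DLL3 (39507850) and one 58.2 kb downstream of the 5′ end (39557138). Replicate 2 alone had one 0.210 kb from the 5′ end of SELENOV (39515349). The last was 16.5 kb from the 5′ end of DLL3.

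Counting a region only for the nearest coding gene by gene 5′ ends, 3 members kept one, which were HES1, NOTCH1 and JAG1. Canonical starts were not used for this count, and that choice bears on DLL1. Over all windows, 29 locations were found, of which 13 were shared. Of the 26 positions of replicate 1, 13 were shared (50.0%, 95% Wilson interval 32.1% to 67.9%), against 49.6% of its 18456 positions on the chromosomes. Of the 16 positions of replicate 2, 13 were shared (81.2%, 57.0% to 93.4%), against 71.5% of 12782. Both member intervals hold the value of all positions, so no difference was detectable with so few positions. The intervals cover counting error only. They also treat positions as independent, although 10 of the 26 and 8 of the 16 were of HES1. The gaps between replicates, a median of 22 bp (2 to 66 bp), were near the 23 bp of all 9145 regions.

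Fewer of the member regions held a GATA motif than of the regions at large. WGATAR was in 6 of 13 (46.2%, 95% Wilson interval 23.2% to 70.9%), against 82.0% of the 9145 shared regions, a value above the interval. That interval treats the regions as independent, although 6 of the 13 were of HES1 and 2 each of JAG1 and DLL1. It may thus be too narrow, and the lower share was not tested. AGATAA was in 4 of 13 against 51.6%. Where WGATAR was present, the nearest match was a median of 10.5 bp from the centre (1.5 to 54.5 bp), against 18.0 bp over all regions with a match. The bare core GATA, a search added after the windows had been seen, was in 11 of 13 against 92.6%. Among the 16 unshared member locations, 7 had WGATAR.

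Base composition moved with the motif share. The member regions had a median GC content of 48.5% (36.5% to 75.0%), against 44.0% over all regions. In windows with at least 60% GC, WGATAR was in 1 of 5 member regions and 50.3% of all 362 such regions. In the windows among these with at least 70% GC, WGATAR was in 1 of 3 member regions and 25.0% of all 60. Below 60% GC it was in 5 of 8 member regions and 83.3% of all. GC content as high as that of the HES1 promoter window was found in 3.54% of all shared regions. The part of base composition in the lower share was not tested.

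TGGGAA went the other way. It was in 5 of 13 member regions (38.5%, 17.7% to 64.5%), against 19.6% of all, a value that the interval holds. The 5 were 4 regions of HES1 and 1 of JAG1. The other letters searched on both strands were at or near the level of all regions, or absent, with counts of 0 to 4. CACNAG was in 3 of 13 against 30.3%, GTCTG (a SMAD element) in 4 of 13 against 36.1%, ACAAWGG (SOX) in 2 of 13 against 13.3% and GGAATG (TEAD) in 3 of 13 against 18.9%. GGCGCC, to which SMAD1 and SMAD5 bind, was in none against 1.96%, the octamer ATGCAAAT of POU factors in none against 5.10%, and TGASTCA of AP-1 (S is C or G) in none against 5.64%. With 13 regions these counts could not separate the members from the rest.

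**Figure D4:**
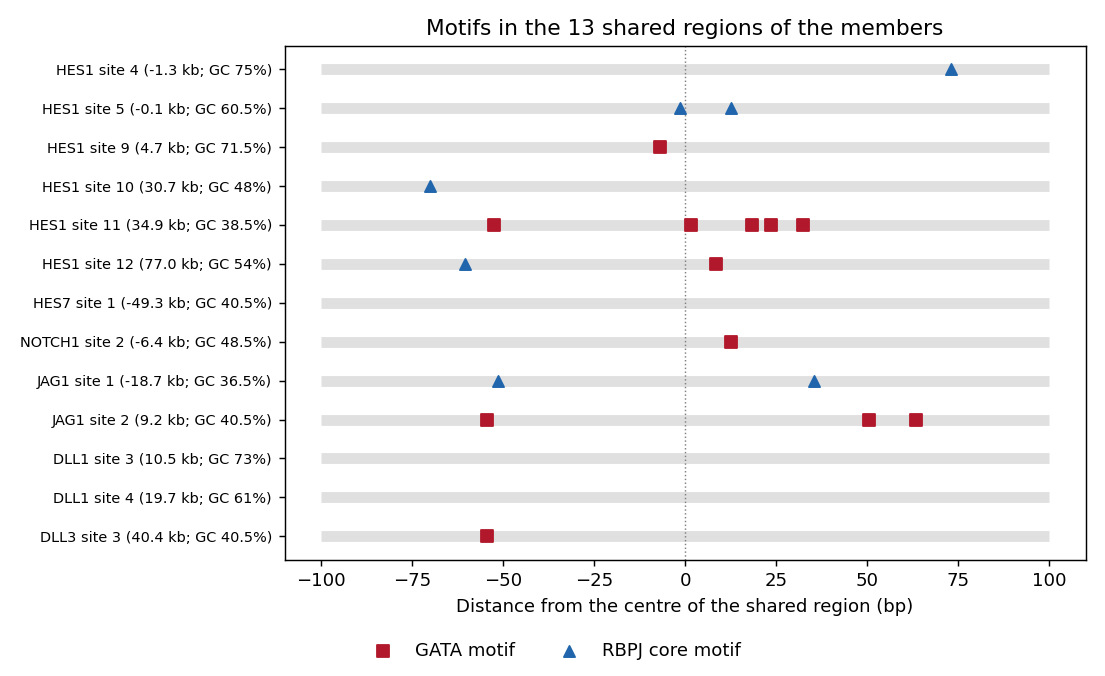
WGATAR (red squares) and TGGGAA (blue triangles) on either strand in the 200 bp windows of the 13 shared regions, 1 row a region with its distance from the gene's 5′ end and its GC content, as the distance in bp from the region's centre. The pair of triangles at the HES1 promoter stands within 12.5 bp of the centre, and the 5 squares stand in the HES1 region 34.9 kb downstream.

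The wider pathway was near the background. Of 32 other Notch pathway genes, 14 (43.8%) had a shared region in the window, against 47.4% of all genes, with a median of 0. By role, 2 of 3 receptors, 1 of 2 ligands and 2 of 4 further HES/HEY effectors had one, along with 2 of 4 genes of the nuclear complex, 4 of 8 genes of receptor processing and 3 of 11 modifiers. The further effectors with a region, named after their values were seen, were HES6 and HEYL. The HES6 region was 16.0 kb upstream, in an intron of PER2, and HES6 was its nearest coding gene. That of HEYL was 72.5 kb upstream, nearer to PPIE. Within 10 kb of the 5′ end there were 2 of 32, against 8.67% of genes, and within 1 kb 1 of 32, against 2.42%. Both counts include MAML3, a co-activator of the RBPJ complex, with 5 shared regions, 11 positions in replicate 1 and 7 in replicate 2. Its body is 437 kb long, and the nearest region was 0.624 kb inside its 5′ end, in exon 1. The other was PSENEN, a subunit of the γ-secretase that cuts the receptor, 5.40 kb upstream in IGFLR1. RBPJ itself had no shared region, with 0 and 1 positions in the replicates, and its nearest was 187 kb away.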

How the data were processed

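GATA3 ChIP-seq peaks of H1 cells given BMP4 (50 ng/ml, 6 h) were analysed in 2 replicates. Per the study's methods and the submitters' processing notes, the authors trimmed reads with cutadapt, aligned them with Bowtie to hg38, discarded duplicates using Picard, dropped multiply mapped reads and blacklisted regions, and called peaks with MACS2 (q 0.05) in each replicate against its own input. Tool versions are not given in the sources used here. The deposited files hold, per entry, 1 genome position as the authors wrote it and a gene name, and no counts, score or width. Counting from 0 or 1 is not stated, so positions carry an uncertainty of 1 bp. The files give no depth for each library, and the study's methods give only a mean over the GATA3 ChIP and input samples. The lists differ in length from the peak numbers in those methods, and the steps between are not stated.

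Positions on 24 chromosomes were set against GENCODE release 44 and hg38 in Python 3.11.15 (numpy 2.4.6, pandas 2.3.3, statsmodels 0.14.6, pysam 0.24.0, matplotlib 3.10.9). A shared region was a replicate 1 and a replicate 2 position within 100 bp, centred on their mean. A gene's window ran 100 kb each side of the GENCODE 5′ end and over the gene body. Motifs were searched on both strands in 200 bp around each centre. All values are counts of positions or regions, so no statistical test was run. Members are set beside the same count over all protein-coding genes or all shared regions, with Wilson intervals. The joining of replicates, the gene windows and the WGATAR search were tested on simulated positions and letters, and the other steps were not. The members, the pathway list and the motifs were chosen with earlier results of these data known. Genes named are the members, the pathway genes with a region within 10 kb and RBPJ, neighbours of member regions, and genes with at least 3 shared regions within 5 kb of the 5′ end. RBPJ, HES6, HEYL and the last set were named after their values were seen. Alternatives to the shared distance, the gene window, the 5′ end, the motif and its window were tried, and each replicate alone.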

Additional observations from a re-analysis of the deposited data

How the results depend on the processing

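The 6 members with a shared region were 6 to 9 under the other distances, windows and starts. They fell to 3 when a region counted only for its nearest coding gene by gene 5′ ends. That rule took the pathway genes with a region from 14 to 4. The 13 regions in member windows became 21 with windows of 200 kb. With 1 replicate alone, the regions were 16 to 26, the members with one 6 to 8, the HES1 regions 8 to 10 instead of 6, and the pathway genes with one 21 to 25. At HES1 the count was 5 to 8 under the other distances and windows. Leaving out a replicate drops the need for agreement, and replicate 1 has the longer list. The share of member regions with WGATAR was 30.8% to 57.1% under the planned settings (37.5% to 53.8% with 1 replicate). The 30.8% was seen with motif windows of 100 bp, against 71.2% of all regions, and with AGATAA, against 51.6%. With the bare core GATA, a search added after the data were seen, the member share was 84.6%, against 92.6% of all regions. No paired analysis was possible because the files of the input samples were not analysed here and the replicates form 1 group. A stricter peak threshold was not run, since the lists hold no score. With 2 lists of positions, a region that one replicate lacks cannot be told from one just under the authors' threshold, and a position near a gene does not show that it acts on it.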
